A study of Mus musculus with 24 samples.

Results

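The Hoxa cluster genes form one of the 4 Hox clusters of the mouse, and 8 of them were followed here across 24 RNA-seq libraries: Hoxa2, Hoxa3, Hoxa4, Hoxa5, Hoxa6, Hoxa7, Hoxa9 and Hoxa10. They were found by gene symbol and are 8 of the 55487 genes in the count table. The libraries came from Lineage-Sca1+KIT+ (LSK) cells, the blood compartment that holds stem cells and multipotent progenitors, after 48 h in culture. ME cells came from MLL::ENL Tet-On-ME mice, in which the fusion was switched on in culture, and control cells from control mice. The 6 groups of 4 libraries were E16 ME and E16 control (embryonic day 16, liver), P14 ME and P14 control (postnatal day 14, marrow), and 8wk ME and 8wk control (8 weeks, marrow). Because the E16 cells are from liver, age and tissue cannot be told apart in any comparison with E16. The controls' genotype, the inducing agent, the promoter behind the transgene and the sex or pooling of mice are not given in the sources used here. The labels do not say that replicates were separate animals, and p-values then measure only the spread between these samples.

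Hox genes encode homeodomain transcription factors, and their order along the chromosome follows the order in which they are used along the body axis. In blood, 5′ members of the Hoxa cluster such as Hoxa9 and Hoxa10 are active in stem and progenitor cells and are shut down as cells mature. MLL (Kmt2a) keeps Hox genes active, and fusions of MLL with ENL (Mllt1) recruit elongation factors that hold Hoxa genes on. Hoxa9 with its partner Meis1 is a known driver of leukaemias that carry such fusions.

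The 8 genes lie on the minus strand of chromosome 6 (GRCm38, GENCODE M21), from Hoxa2 at chr6:52162417-52164831 to Hoxa10 at chr6:52231197-52240854. Hoxa3 occupies chr6:52169062-52213336, Hoxa4 chr6:52189671-52191753, Hoxa5 chr6:52201754-52204587 and Hoxa6 chr6:52206288-52208722. Hoxa7 lies at chr6:52214491-52221854 and Hoxa9 at chr6:52223100-52231089. Hoxa5, Hoxa6 and Hoxa10 shared no exon base with another gene. Antisense transcripts overlap 20.4% of the exon bases of Hoxa7, 16.0% of those of Hoxa4 and part of the 27.1% shared in Hoxa3. The strand setting of the counting is not given, so reads of those genes and of their antisense partners cannot be told apart.

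The bases just before the start sites of the 3 members that passed the ME test at all 3 ages, Hoxa5, Hoxa9 and Hoxa10, are shown because MLL proteins carry a domain that binds unmethylated CG dinucleotides. Each run is the 250 bases before a RefSeq start (GRCm38.p6, minus strand, written 5′ to 3′ on the gene's strand), with CG in capitals. The 2 starts of Hoxa10 in RefSeq are both shown.
Hoxa5, chr6:52204588-52204837: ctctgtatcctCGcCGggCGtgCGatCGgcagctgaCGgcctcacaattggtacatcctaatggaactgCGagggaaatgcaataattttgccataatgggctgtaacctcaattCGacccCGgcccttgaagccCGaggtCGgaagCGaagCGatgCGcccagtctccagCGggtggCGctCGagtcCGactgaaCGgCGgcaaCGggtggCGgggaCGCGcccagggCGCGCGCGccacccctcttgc
Hoxa9, chr6:52227371-52227620: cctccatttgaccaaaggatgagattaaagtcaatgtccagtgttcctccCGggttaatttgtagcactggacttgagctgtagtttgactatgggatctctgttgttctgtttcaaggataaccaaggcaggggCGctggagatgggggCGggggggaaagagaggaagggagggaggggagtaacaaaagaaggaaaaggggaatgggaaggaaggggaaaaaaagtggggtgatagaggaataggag
Hoxa10, downstream start, chr6:52234940-52235189: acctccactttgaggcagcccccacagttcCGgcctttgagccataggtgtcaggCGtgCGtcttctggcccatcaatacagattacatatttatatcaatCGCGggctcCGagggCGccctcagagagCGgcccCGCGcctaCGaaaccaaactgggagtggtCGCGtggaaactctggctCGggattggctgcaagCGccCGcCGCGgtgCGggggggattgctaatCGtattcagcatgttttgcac
Hoxa10, upstream start, chr6:52240855-52241104: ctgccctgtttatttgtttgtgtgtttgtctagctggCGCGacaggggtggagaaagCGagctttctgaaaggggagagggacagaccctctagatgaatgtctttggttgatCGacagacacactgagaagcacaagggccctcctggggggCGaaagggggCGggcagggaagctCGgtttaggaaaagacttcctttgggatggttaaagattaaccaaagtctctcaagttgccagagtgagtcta
The Hoxa5 window held 28 CG, and 92.4% of the 32817 promoter windows of this length held fewer. The Hoxa9 window held 3 CG, below the median of 6, and 29.1% of windows held fewer. For Hoxa10 the downstream start had 20 CG and the upstream start 7. Among the other members with a RefSeq entry, the windows held 24 CG in Hoxa6, 18 in Hoxa3, 7 in Hoxa7 and 6 in Hoxa2. Bases after the start were not counted, and a link of CG to the ME response was not tested. A search on both strands for TGATTNAT, the paired site of Pbx and Hox proteins, found 1 match among the windows of the 7 members with a RefSeq entry, in Hoxa2, and 2.83% of all windows held one. TGACAG, a Meis site, matched in Hoxa2 and in Hoxa3 (15.9% of windows). TTTATG, a Cdx site, matched 2 times in Hoxa7 (10.8% of windows). TATAAA, the TATA box, matched 1 time, before the downstream Hoxa10 start (12.4% of windows). CCAAT, the CCAAT box, matched 4 times in Hoxa2 and 1 time each in Hoxa5, in Hoxa6 and before the downstream Hoxa10 start (33.8% of windows). No 2 of these motifs contain each other, and a match is only a match of letters.

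Libraries held 33.9 to 69.3 M counts. Mllt1, the ENL side of the fusion, averaged 53.7, 66.7 and 48.8 CPM (read counts scaled to library size with TMM) in E16, P14 and 8wk ME cells, against 18.4, 22.0 and 17.5 CPM in controls of the same ages, and Kmt2a averaged 17.6, 26.2 and 24.3 CPM in ME, against 9.74, 12.8 and 14.6 CPM in controls. ME libraries thus averaged more reads of both genes. Counts per gene cannot tell reads of the fusion from those of the endogenous genes. The LSK markers Kit (376 to 1763 CPM) and Ly6a (61.9 to 827 CPM) were found in every library. On the first 3 principal components, E16 ME replicate 4, 8wk ME replicate 4 and 8wk control replicate 1 stood apart from their groups, and results that change without these 3 are given with and without them. All 8 members passed the filter on low counts, which left 18931 genes in the test.

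Hoxa7, Hoxa9 and Hoxa10 carried nearly all of the Hoxa message. Per kilobase of exon, these 3 made up 93.9% to 96.6% of the summed level of the 8 members as group means. In E16 cells Hoxa9 stood at 18.1 ± 2.32 CPM per kb in ME and 10.1 ± 1.16 in controls (SD, n = 4 each), and Hoxa10 at 16.4 ± 2.66 in ME and 3.78 ± 0.40 in controls. Hoxa5, the next in order in every group, reached 1.39 ± 0.115 CPM per kb in E16 ME and 0.358 ± 0.0391 in E16 controls. Hoxa6 came after Hoxa5 by group mean in all 6 groups, between 0.183 and 0.806 CPM per kb. Libraries of Hoxa5 and Hoxa6 overlapped in E16 controls, and Hoxa6 overlapped the next gene in order in every group but E16 ME. Hoxa2, Hoxa3 and Hoxa4 had group means of 0.0511 to 0.214 CPM per kb and overlapped one another in most groups, so their order is not set. The order by length-scaled level was Hoxa9, Hoxa7, Hoxa10 in E16 and P14 controls and Hoxa9, Hoxa10, Hoxa7 in 8wk controls. Hoxa9 and Hoxa7 overlapped in E16 controls, Hoxa7 and Hoxa10 in P14 controls, and Hoxa9 and Hoxa10 in 8wk controls and in all 3 ME groups. With the longest transcript as the length, Hoxa9 led in all 6 groups, among them P14 ME with 29.96 CPM per kb, against 28.14 for Hoxa10, where the exon length puts Hoxa10 first.

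**Figure D1:**
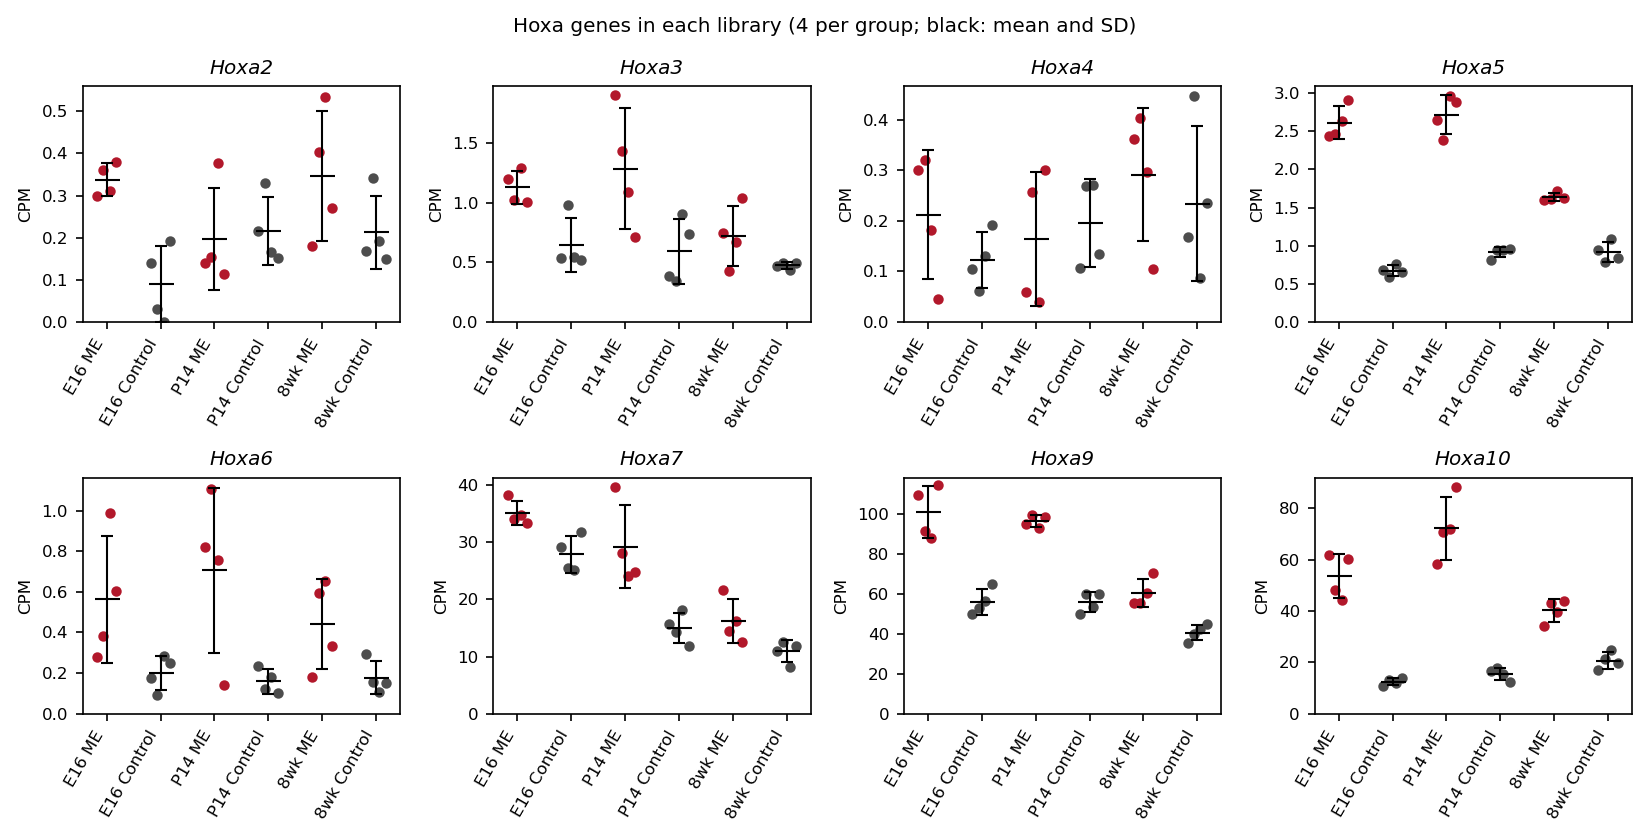
CPM of each Hoxa gene (y axis, linear, from 0) in each of the 24 libraries, by group (x axis), with red points for ME and grey points for control libraries and black bars for mean and SD of 4. ME points of Hoxa5, Hoxa9 and Hoxa10 lie above the control points of the same age at all 3 ages.

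With the fusion on, members of the cluster rose, and Hoxa10 and Hoxa5 had the largest log2 fold changes among the 4 members called at more than 1 age (Hoxa5, Hoxa7, Hoxa9, Hoxa10). At E16, 4 of 8 members passed the test and were higher in ME (Hoxa2, Hoxa5, Hoxa9, Hoxa10), where 13.3% of all tested genes were higher. At P14 there were 6 (Hoxa3, Hoxa5, Hoxa6, Hoxa7, Hoxa9, Hoxa10), where 12.7% of genes were higher, and at 8 weeks 4 (Hoxa5, Hoxa7, Hoxa9, Hoxa10), where 14.2% were. Every called member was higher in ME. The median log2 fold change of the 8 members was 1.16 at E16, 1.03 at P14 and 0.66 at 8 weeks, against 0.02, 0.03 and -0.02 over all tested genes. ME and control libraries did not overlap for 6, 4 and 4 members at E16, P14 and 8 weeks, each with ME higher, where 14.5%, 14.1% and 12.0% of genes did so. Scaling by library size alone moved the median of all genes at E16 and P14 to 0.11 in both, and the share of higher genes among those called to 74.6% and 70.5%, against 61.1% and 57.5% with TMM. In bulk libraries more cells with a message and more message per cell cannot be told apart.

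**Figure D2:**
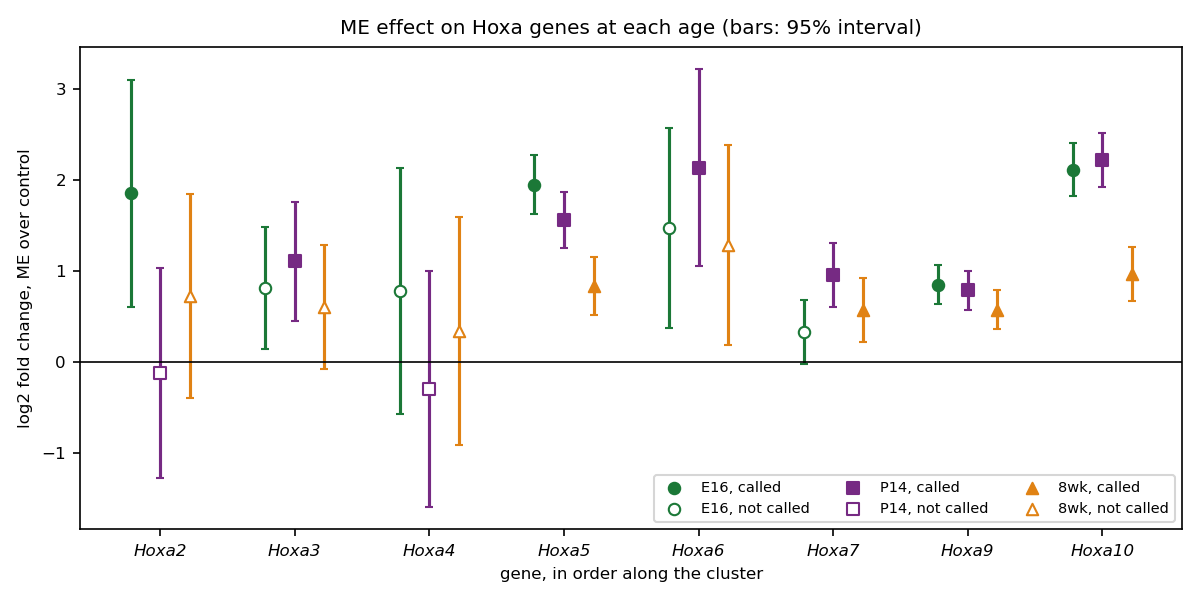
Log2 fold change of ME over control (y axis, bars for 95% intervals) for each Hoxa gene in order along the cluster (x axis), at E16 (circles), P14 (squares) and 8wk (triangles), filled where the adjusted p was under 0.05. Hoxa5, Hoxa9 and Hoxa10 are filled at all 3 ages, and each of these, like Hoxa3 and Hoxa6, has its smallest value at 8wk.

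Hoxa10, which supports self-renewal of progenitors when its level is raised, had 61.8, 48.2, 44.4 and 60.2 CPM in E16 ME libraries, against 10.7, 13.1, 12.0 and 13.7 CPM in E16 controls. In P14 it had 58.1, 70.6, 71.8 and 88.1 CPM in ME, against 16.6, 17.8, 15.2 and 12.2 CPM in controls. In 8wk cells it had 34.1, 43.0, 39.8 and 44.0 CPM in ME, against 16.9, 21.3, 24.6 and 19.5 CPM in controls. The ME and control libraries never overlapped within an age, and the gap was narrowest at 8 weeks, where ME was lowest and control highest. The log2 fold change was 2.12 ± 0.15 (SE) at E16 (edgeR adjusted p = 7.73e-09), 2.22 ± 0.15 at P14 (4.06e-09) and 0.97 ± 0.15 at 8 weeks (9.65e-05). These are 4.34-fold, 4.67-fold and 1.96-fold.

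Hoxa9, the partner of Meis1 in leukaemia, had the most reads of the members, without regard to length, in all 24 libraries. E16 ME libraries had 109.6, 91.8, 88.3 and 115 CPM, against 50.04, 52.9, 56.5 and 64.9 CPM in E16 controls. P14 ME libraries had 95.3, 99.5, 93.2 and 98.6 CPM, against 49.97, 59.95, 53.6 and 60.2 CPM in controls. 8wk ME libraries had 55.6, 55.5, 60.7 and 70.6 CPM, against 35.5, 40, 42.3 and 44.7 CPM in controls. Every ME library was above every control library of its age, while 8wk ME libraries overlapped the range of E16 and P14 controls. The log2 fold changes were 0.85 ± 0.11 at E16 (edgeR adjusted p = 1.18e-05), 0.79 ± 0.11 at P14 (2.07e-05) and 0.58 ± 0.11 at 8 weeks (5.36e-04).

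Hoxa7, itself a known target of MLL fusions, had 38.2, 34.0, 34.9 and 33.5 CPM in E16 ME libraries, against 29.3, 25.5, 25.1 and 31.8 CPM in controls. P14 ME libraries had 39.8, 28.2, 24.1 and 24.8 CPM, against 15.8, 14.4, 18.1 and 11.8 CPM in controls. 8wk ME libraries had 21.6, 14.5, 16.2 and 12.60 CPM, against 10.95, 12.55, 8.21 and 11.9 CPM in controls. The groups did not overlap at any age, although at 8 weeks the lowest ME and the highest control library nearly touched. Hoxa7 passed the test at P14 (log2 fold change 0.96 ± 0.18, edgeR adjusted p = 5.29e-04) and at 8 weeks (0.57 ± 0.18, 0.0209). At 8 weeks the call ended without 8wk ME replicate 1 (0.0990), without 8wk control replicate 3 (0.0594) and in a fit of the 8wk groups alone (0.0733). At E16 its log2 fold change was 0.33 ± 0.18 (0.198), with a 95% interval of -0.02 to 0.68, and it passed in a fit of the E16 groups alone (0.35, 0.0466). Hoxaas3, the antisense transcript that overlaps it, had 72 counts in all over the E16 ME libraries and 81 over E16 controls, against 6757 and 4815 counts of Hoxa7.

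Hoxa5, a mid-cluster gene known from human blood to restrain erythroid maturation, was below Hoxa7, Hoxa9 and Hoxa10 in length-scaled level. It had 2.44, 2.47, 2.63 and 2.91 CPM in E16 ME, against 0.680, 0.584, 0.763 and 0.660 CPM in E16 controls. In P14 it had 2.64, 2.39, 2.96 and 2.88 CPM in ME, against 0.816, 0.942, 0.949 and 0.962 CPM in controls. In 8wk it had 1.60, 1.61, 1.72 and 1.63 CPM in ME, against 0.949, 0.786, 1.08 and 0.837 CPM in controls. No ME library overlapped the controls of its age, and 8wk ME lay between controls and the younger ME groups. The log2 fold changes were 1.95 ± 0.16 at E16 (edgeR adjusted p = 5.68e-08), 1.56 ± 0.16 at P14 (7.59e-07) and 0.84 ± 0.16 at 8 weeks (6.43e-04).

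Hoxa6, between Hoxa5 and Hoxa7, rested on 3 to 54 counts per library. P14 ME libraries had 0.821, 1.10, 0.755 and 0.138 CPM, against 0.236, 0.120, 0.181 and 0.101 CPM in P14 controls, so 3 ME libraries were high and the fourth lay among the controls. It passed the test at P14 (log2 fold change 2.14 ± 0.55, edgeR adjusted p = 0.00811). At E16 ME libraries had 0.277 to 0.987 CPM and controls 0.0922 to 0.283 CPM (1.48 ± 0.56, 0.0620), a value that passed in DESeq2 (0.0495), without E16 ME replicate 1 (0.0429) and without P14 ME replicate 4 (0.0329). At 8 weeks they had 0.180 to 0.652 CPM in ME and 0.105 to 0.293 CPM in controls (1.29 ± 0.56, 0.0891). The 8wk value passed without the 3 libraries that stood apart (1.79, 0.0490), without 8wk control replicate 1 alone (0.0445) and without 8wk ME replicate 1 (0.0493).

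The 3′ members Hoxa2, Hoxa3 and Hoxa4, which pattern the hindbrain and neck of the embryo, were low, with 18 to 95 counts per library for Hoxa3, 0 to 27 for Hoxa2 and 2 to 18 for Hoxa4. Hoxa3 in P14 had 1.90, 1.44, 1.09 and 0.714 CPM in ME libraries, against 0.387, 0.344, 0.903 and 0.743 CPM in controls, with 1 ME library inside the control range. It passed at P14 (log2 fold change 1.11 ± 0.34, edgeR adjusted p = 0.0211). That call ended without P14 ME replicate 1 (0.0945) or 2 (0.0534) and without P14 control replicate 1 (0.0792) or 2 (0.0741). It also ended with no filter (0.0579), in a fit of the P14 groups alone (0.0690), and in that fit of P14 groups with the replicate number as a block (0.103), but not with the block in the fit of all libraries. Antisense Hoxaas2, which overlaps Hoxa3, had 78 counts in P14 ME and 37 in P14 controls. At E16 Hoxa3 had 1.01 to 1.30 CPM in ME and 0.523 to 0.984 CPM in controls (0.81 ± 0.34, 0.0931), and at 8 weeks 0.427 to 1.04 CPM in ME and 0.436 to 0.498 CPM in controls (0.60 ± 0.35, 0.204). Hoxa2 had 13, 18, 17 and 17 counts in E16 ME libraries, against 8, 1, 0 and 7 counts in controls. It passed at E16 (1.85 ± 0.64, 0.0364), a call that ended without the 3 libraries that stood apart (0.0785), with the replicate block (0.0574) and in 10 of 34 alternatives in all. Its values were -0.12 ± 0.59 at P14 (0.915) and 0.72 ± 0.57 at 8 weeks (0.370). Hoxa4 overlapped between ME and control at every age and gave log2 fold changes of 0.78 ± 0.69, -0.30 ± 0.66 and 0.34 ± 0.64 at E16, P14 and 8 weeks (adjusted p from 0.450 to 0.803).

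Whether the ME response differed between ages was tested as a difference of log2 fold changes. The response of Hoxa10 was smaller at 8 weeks than at P14 by 1.26 on the log2 scale (-1.26 ± 0.21, edgeR adjusted p = 0.0213), 1 of 8 members called lower where 0.106% of all genes were. Against E16, the 8wk response was smaller for Hoxa10 (-1.15 ± 0.21, 0.0118) and for Hoxa5 (-1.11 ± 0.23, 0.0209), 2 of 8 where 0.391% of genes were lower. These backgrounds depend on a few libraries: genes called in either direction numbered 57 for 8wk minus P14, but 369 without 8wk control replicate 1 and 1009 without the 3 libraries that stood apart, and 161 for 8wk minus E16, but 896 and 1362. The Hoxa10 difference from E16 held in all 35 alternatives, with adjusted p from 2.41e-04 to 0.0370. The Hoxa10 difference from P14 ended without P14 ME replicate 4 (0.0674), without 8wk control replicate 2 (0.0572) and with only the 4 groups compared (0.0727). The Hoxa5 difference ended with no filter (0.171), with only the 4 groups compared (0.0938), without E16 ME replicate 4 (0.0506), without E16 control replicate 1 (0.0504) or 2 (0.0550), and without 8wk control replicate 3 (0.0695). For Hoxa9 the 8wk response minus the P14 one was -0.21 (95% interval -0.51 to 0.09), and minus the E16 one -0.27 (-0.57 to 0.03), neither past the test. For Hoxa7 these were -0.39 (-0.89 to 0.11) and 0.24 (-0.26 to 0.74). Between P14 and E16 edgeR called 0 of 8 members, where 0.0211% of genes were called. Hoxa2 and Hoxa7 had an unadjusted p under 0.05 there, and DESeq2 and limma-voom called 0 members. The P14 minus E16 interval of Hoxa10 was -0.31 to 0.52.

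In 8wk against E16 controls Hoxa7 and Hoxa9 were lower and Hoxa10 was higher, a comparison in which age and tissue cannot be told apart. Between the marrow groups, 8wk and P14 controls, Hoxa9 alone passed the test. Hoxa7 fell to 15.0 ± 2.63 CPM in P14 controls, against 27.9 ± 3.19 CPM in E16 controls (SD, n = 4 each), a log2 fold change of -0.90 ± 0.18 (edgeR adjusted p = 0.00134), 1 of 8 members lower where 7.51% of genes were. In 8wk controls it was 10.9 ± 1.92 CPM, and -1.36 ± 0.18 from E16 (1.09e-05), while the difference from P14 controls was -0.46 ± 0.18 (0.0961). Hoxa9 fell to 40.6 ± 3.93 CPM in 8wk controls, against 55.9 ± 5.01 CPM in P14 controls (-0.46 ± 0.11, 0.00891), 1 of 8 lower where 5.58% of genes were, and against 56.1 ± 6.45 CPM in E16 controls (-0.46 ± 0.11, 0.00318). The call against P14 ended with a GC correction (0.0589). Hoxa10 rose to 20.6 ± 3.25 CPM in 8wk controls, against 12.4 ± 1.31 CPM in E16 controls (0.73 ± 0.15, 0.00113). In all, 3 of 8 members were called between 8wk and E16 controls, where 23.3% of genes were. From P14 controls, at 15.5 ± 2.42 CPM, the Hoxa10 difference was 0.41 ± 0.15 (0.0755). That value passed without the 3 libraries that stood apart (0.50, 0.0307) and without 8wk control replicate 1 alone (0.0326). Hoxa5 had 0.584 to 0.763 CPM in E16, 0.816 to 0.962 CPM in P14 and 0.786 to 1.08 CPM in 8wk controls. Both later groups lay above all E16 controls, with 0.44 ± 0.17 at P14 (0.0752) and 0.44 ± 0.17 at 8 weeks (0.0584). The P14 value passed without 8wk control replicate 3 (0.0482), and the 8wk value with the filter at 1 CPM (0.0415).

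Markers of other cell types moved with these control groups. Of all tested genes 7.51% were lower in P14 than in E16 controls and 5.58% lower in 8wk than in P14 controls. Between 8wk and E16 controls 23.3% were called in either direction. Neutrophil lineage markers (Elane, Mpo, Ltf, Camp, Ngp, S100a8, S100a9, Mmp8 and Ly6g) were lower in P14 than in E16 controls for 6 of 9 genes. Their summed level was 388 to 1400 CPM, against 3770 to 9620 CPM. Monocyte markers were lower for 8 of 8 (55.0 to 87.6 CPM, against 376 to 1110 CPM), with C1qa and C1qb at 0 in P14 controls. Erythroid markers were lower for 4 of 6 (29.0 to 38.6 CPM, against 614 to 974 CPM) and megakaryocyte markers for 3 of 5 (53.9 to 115 CPM, against 179 to 450 CPM). Between 8wk and P14 controls, 3 of 10 LSK markers were lower (2470 to 2770 CPM, against 3050 to 3520 CPM). Higher in 8wk controls were 1 of 8 monocyte markers (148 to 647 CPM, against 55.0 to 87.6 CPM) and 1 of 5 megakaryocyte markers (204 to 452 CPM, against 53.9 to 115 CPM). In that comparison 1327 of 18931 genes were higher. Neutrophil markers had 0 of 9 called (414 to 4390 CPM, against 388 to 1400 CPM), with a median log2 fold change of 3.70. In 8wk against E16 controls 2 of 9 neutrophil, 4 of 8 monocyte, 4 of 6 erythroid and 3 of 5 megakaryocyte markers were lower. The part of these cells in the Hoxa differences was not tested.

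In ME cells Hoxa5, Hoxa7, Hoxa9 and Hoxa10 were lower at 8 weeks than at P14, a comparison added after the data were seen. Against P14 ME, 8wk ME was lower by -0.73 ± 0.16 for Hoxa5 (edgeR adjusted p = 0.00435), -0.85 ± 0.18 for Hoxa7 (0.00377), -0.67 ± 0.11 for Hoxa9 (3.45e-04) and -0.84 ± 0.15 for Hoxa10 (8.89e-04), 4 of 8 members where 5.22% of genes were lower. All 4 had every 8wk ME library below every P14 ME library, as did 8.01% of genes. Against E16 ME, Hoxa5 (-0.67 ± 0.16, 0.00527), Hoxa7 (-1.12 ± 0.18, 1.53e-04) and Hoxa9 (-0.74 ± 0.11, 4.91e-05) were lower, 3 of 8 where 7.71% of genes were. Both Hoxa5 calls ended with no filter on low counts (0.0749 against P14 and 0.103 against E16) and with only the groups compared (0.0510 and 0.0533). Hoxa10 was -0.42 ± 0.15 from E16 ME (0.0656), and passed with library size scaling (0.0465) and without E16 ME replicate 3 (0.0436). Between P14 ME and E16 ME edgeR called 0 of 8 members, where 9.19% of genes were called. Hoxa10 alone had an unadjusted p under 0.05 there (0.43 ± 0.15, adjusted p = 0.0817), and DESeq2 and limma-voom called 0. It passed without the 3 libraries that stood apart (0.49, 0.0433) and without P14 ME replicate 1 (0.52, 0.0424). Neutrophil markers were higher in 8wk ME than in P14 ME for 7 of 9 genes (1380 to 6240 CPM, against 216 to 1990 CPM), and monocyte markers for 4 of 8 (137 to 931 CPM, against 64.9 to 125 CPM), where 6.22% of all genes were higher. In 8wk against E16 ME, erythroid markers were lower for 4 of 6 (14.7 to 88.7 CPM, against 86.7 to 1010 CPM). Megakaryocyte markers there were higher for 2 of 5 and lower for 1 (median sum 176 CPM, against 66.4 CPM, with no overlap), and monocyte markers higher for 1 of 8 and lower for 2 (137 to 931 CPM, against 84.3 to 501 CPM). In P14 against E16 ME, 4 of 9 neutrophil, 5 of 8 monocyte and 3 of 6 erythroid markers were lower, where 9.19% of genes were called. The erythroid sums there were 29.0 to 45.7 CPM, against 86.7 to 1010 CPM. Of 10 LSK markers, 2 were higher and 3 lower in 8wk than in P14 ME. In P14 against E16 ME, 1 was higher and 1 lower. Their part in these differences was not tested.

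Hoxa10 made up more of the Hoxa message in ME than in control cells at E16 and P14. Its level per kb relative to that of Hoxa9 was 0.903 ± 0.0438 in E16 ME and 0.377 ± 0.0298 in E16 controls, 1.27 ± 0.202 in P14 ME and 0.476 ± 0.0935 in P14 controls, and 1.14 ± 0.126 in 8wk ME and 0.864 ± 0.109 in 8wk controls (SD, n = 4 each). ME and control libraries did not overlap at any age, with 1.05 the lowest ratio in 8wk ME and 0.992 the highest in 8wk controls. Hoxa10 made up 33.1 ± 2.10% of the summed level in E16 ME and 15.6 ± 1.39% in E16 controls. The share of Hoxa10 was 42.1 ± 5.93% in P14 ME and 22.46 ± 2.697% in P14 controls. At 8 weeks it was 40.04 ± 3.494% in ME and 34.1 ± 4.00% in controls, with overlapping libraries. The share of Hoxa7 was 24.9 ± 2.31% in E16 ME and 39.9 ± 2.85% in E16 controls. At the other ages the Hoxa7 share overlapped between ME and control. The summed level was 49.3 ± 5.03 CPM per kb in E16 ME and 24.4 ± 2.31 in E16 controls, 52.2 ± 2.27 in P14 ME and 21.0 ± 1.21 in P14 controls, and 30.7 ± 1.15 in 8wk ME and 18.4 ± 1.31 in 8wk controls. These ratios and shares are descriptions, with no test of their own, and the ratios depend on the length taken for each gene.

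**Figure D3:**
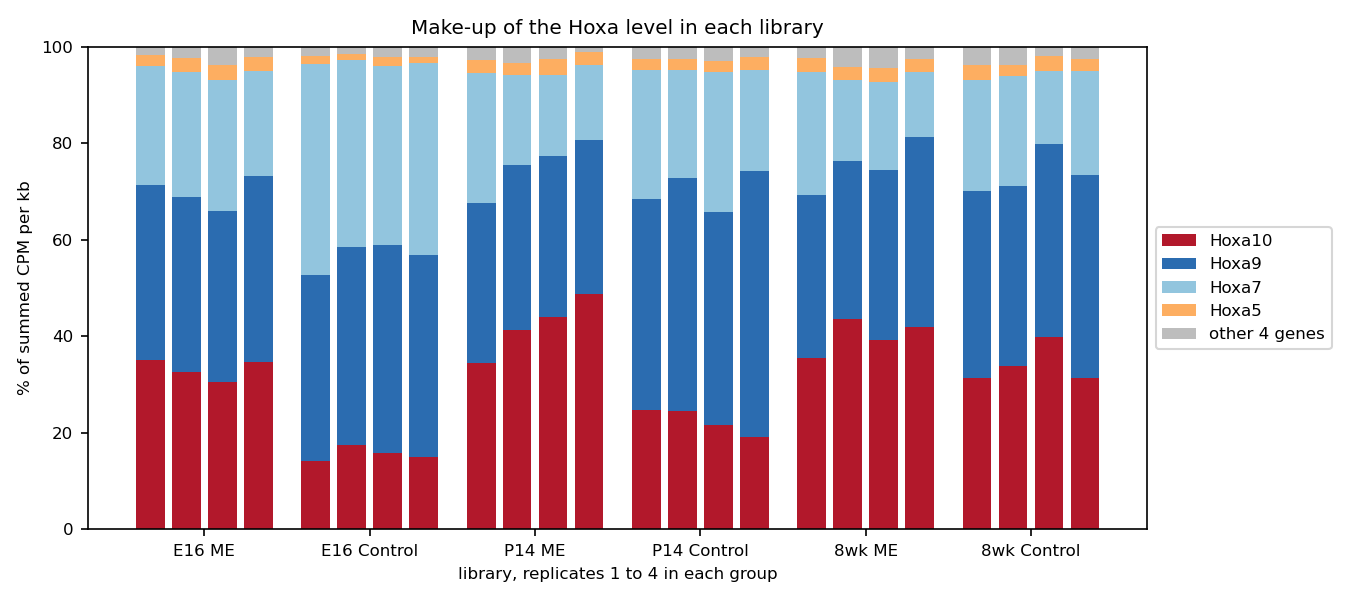
Share of the summed Hoxa level (y axis, % of CPM per kb over the 8 genes) taken by Hoxa10, Hoxa9, Hoxa7, Hoxa5 and the other 4 genes in each of the 24 libraries (x axis, replicates 1 to 4 of each group). Hoxa10 takes 30.4% to 35.0% in E16 ME libraries and 14.1% to 17.4% in E16 control libraries.

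Across all 24 libraries log2 CPM of Hoxa5 and Hoxa10 moved together with a Pearson r of 0.95, and that of Hoxa5 and Hoxa9 with 0.83. The libraries share group means in these values. With group means removed, Hoxa5 and Hoxa10 had an r of 0.08, and Hoxa9 and Hoxa10, which are neighbours on the chromosome, had 0.49. The other neighbouring pairs of members ranged from -0.38 (Hoxa4 and Hoxa5) to 0.15 (Hoxa6 and Hoxa7). Hoxa5 and Hoxa7 had -0.44 within groups and Hoxa7 and Hoxa10 -0.34. The high values thus come with the differences between groups. Hoxa4 had an r of 0.12 with the mean profile of the 8 members, of which it is one, Hoxa7 0.64, Hoxa10 0.89 and Hoxa5 0.93.

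**Figure D4:**
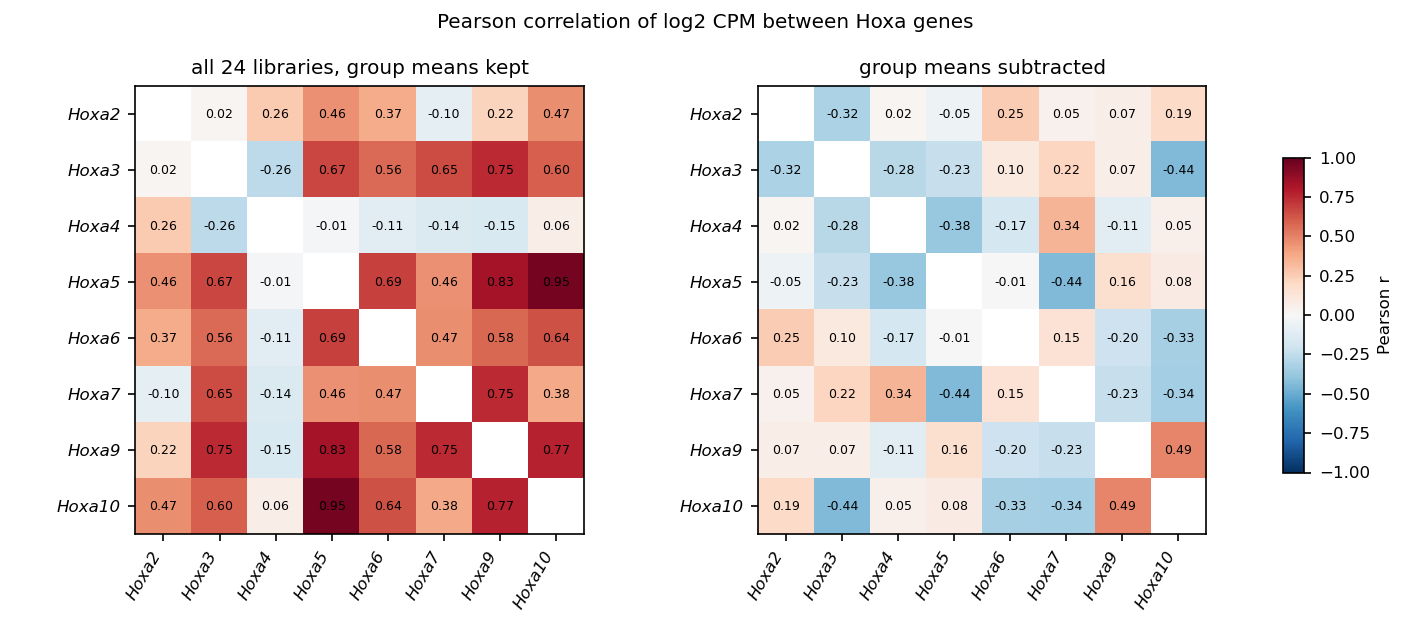
Pearson correlation of log2 CPM between pairs of Hoxa genes over 24 libraries (both axes list the genes, colour gives r), with group means kept on the left and subtracted on the right. Hoxa5 and Hoxa10 reach 0.95 on the left and 0.08 on the right.

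The genes most like the mean Hoxa profile over the 24 libraries, by Pearson r of log2 CPM among genes outside the Hox clusters, were Zc3hav1l (0.951), Ythdc1 (0.944), Neto2 (0.939), Skida1 (0.937) and Rdh10 (0.931). Skida1 had 13.5, 7.96 and 2.04 CPM on average in E16, P14 and 8wk ME cells, against 0.646, 0.403 and 0.411 CPM in controls. Rdh10, an enzyme that makes retinal on the way to retinoic acid, had 11.2, 12.3 and 8.82 CPM in ME, against 4.13, 4.48 and 4.21 CPM in controls. Ythdc1, a nuclear reader of methylated adenosine in RNA, had 21.8, 24.1 and 18.7 CPM in ME, against 8.10, 8.59 and 7.28 CPM in controls. These r are over libraries of 6 groups that share their group means.

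The rest of the locus was mostly too low for a test. Of 11 other transcripts of the cluster and its edges, Hoxaas2 and Hoxaas3 had enough counts for a test, and neither passed between ME and control cells at any age. Hoxaas2 was higher in P14 ME than in E16 ME, where 871 of 18931 genes were higher. It rested on 15 to 24 counts per P14 ME library and 3 to 10 per E16 ME library. Hoxa11 had at most 5 counts in a library and Hoxa13 at most 5. Of 8 tested flanking genes 1 was higher and 1 lower in ME at E16 and again at P14, and 1 higher and 2 lower at 8 weeks. Over all tested genes 8.47%, 9.35% and 14.3% were lower at the 3 ages, beside the 13.3%, 12.7% and 14.2% that were higher. Hnrnpa2b1, an RNA-binding protein gene, was lower at all 3 ages (1269 ± 81.4 CPM in E16 ME and 1564 ± 21.6 CPM in E16 controls, log2 fold change -0.30 ± 0.08, edgeR adjusted p = 0.0121). Creb5, a transcription factor gene, was higher at 8 weeks (2.704 ± 0.776 CPM in ME and 0.753 ± 0.0848 CPM in controls, 1.84 ± 0.33, 4.47e-04).

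In the Hoxb cluster 5 of 10 genes were tested, and 4, 1 and 0 were higher in ME at E16, P14 and 8 weeks. The share of all tested genes that were higher was 13.3%, 12.7% and 14.2% at these ages. Hoxb5 had 1.42 ± 0.607 CPM in E16 ME and 0.223 ± 0.0904 CPM in E16 controls (log2 fold change 2.66 ± 0.39, edgeR adjusted p = 5.27e-05). Hoxc5 was the 1 Hoxc gene tested and did not pass, and no Hoxd gene had the counts for a test. Among 9 tested partner factors, which bind DNA beside Hox proteins, 2, 2 and 1 were higher in ME, beside the same shares of all genes. Pbx3, the partner reported with HOXA9 in human leukaemia, was higher at all 3 ages, with 7.14 ± 3.97, 5.63 ± 2.41 and 5.69 ± 1.40 CPM in E16, P14 and 8wk ME, against 2.23 ± 0.839, 1.48 ± 0.359 and 2.34 ± 0.961 CPM in controls. Its log2 fold changes were 1.68 ± 0.36, 1.93 ± 0.36 and 1.28 ± 0.35. Meis1 was higher at E16 (177 ± 38.1 CPM in ME and 121 ± 4.24 CPM in controls, 0.54 ± 0.17, 0.0221). It was not called at P14, with 236.2 ± 13.78 CPM in ME and 177.1 ± 6.127 CPM in controls. Nor was it called at 8 weeks, with 190.3 ± 68.75 CPM and 184.5 ± 7.402 CPM.

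Of 16 genes listed as targets of Hoxa9 and Meis1, 7 were higher and 2 lower in ME at E16, 5 and 3 at P14, and 4 and 1 at 8 weeks. Of all tested genes 13.3%, 12.7% and 14.2% were higher and 8.47%, 9.35% and 14.3% lower. These shares also stand beside the other counts of this paragraph. Sox4, a transcription factor gene, had 120.1 ± 39.1, 145 ± 46.8 and 92.3 ± 23.2 CPM in E16, P14 and 8wk ME, against 31.4 ± 4.02, 26.8 ± 6.80 and 24.0 ± 4.36 CPM in controls. Of 18 MLL complex genes and fusion cofactors, 7 were higher and 3 lower at E16, 7 and 4 at P14, and 5 and 4 at 8 weeks. Psip1, whose product LEDGF tethers MLL to chromatin, was higher at all 3 ages by 2.25 ± 0.26, 2.36 ± 0.25 and 1.74 ± 0.25 on the log2 scale. Of 10 tested Cdx, retinoid receptor and chromatin genes that act on Hox clusters, 3 were higher at E16, 3 higher and 1 lower at P14, and 4 higher and 1 lower at 8 weeks. Both the Polycomb genes Bmi1 (1.85 ± 0.23, 2.08 ± 0.23 and 1.58 ± 0.23) and Suz12 (1.87 ± 0.32, 2.13 ± 0.32 and 2.28 ± 0.32) were higher at all 3 ages, and their proteins are known to silence Hox genes.

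Some cell type markers also moved between ME and control cells. At E16, P14 and 8 weeks 13.3%, 12.7% and 14.2% of all tested genes were higher and 8.47%, 9.35% and 14.3% lower. Megakaryocyte markers were lower in ME at E16 for 4 of 5 genes (43.7 to 69.9 CPM summed, against 179 to 450 CPM). B cell markers were higher at P14 for 5 of 7 (38.3 to 246 CPM, against 37.8 to 43.8 CPM), and monocyte markers at 8 weeks for 4 of 8 (137 to 931 CPM, against 148 to 647 CPM). Neutrophil markers summed to 1380 to 6240 CPM in 8wk ME and 414 to 4390 CPM in 8wk controls, with 0 of 9 genes called. The median neutrophil sum was 5560 CPM in 8wk ME and 749 CPM in 8wk controls. For monocyte markers the median sums were 806 CPM and 169 CPM. Of 10 LSK markers 3 were higher and 1 lower in ME at E16 and at P14, and 4 higher and 2 lower at 8 weeks (3170 to 4010 CPM, against 2470 to 2770 CPM). Within the 8wk sums, Kit had 1463 ± 302.9 CPM in ME and 487 ± 90.65 CPM in controls. Cd48 was lower, with 172.2 ± 25.7 CPM in 8wk ME and 361.6 ± 124.3 CPM in 8wk controls. The part of these cells in the Hoxa differences was not tested. Without the 3 libraries that stood apart, Hoxa5, Hoxa9 and Hoxa10 kept their calls at all 3 ages, with log2 fold changes of 0.86, 0.43 and 0.84 at 8 weeks.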

How the data were processed

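Raw counts per gene in 24 RNA-seq libraries were deposited, made by the authors with STAR 2.7.9a on GRCm38 and featureCounts 2.0.3, per the submitters' processing notes. The labels' protocols name a Clontech kit for the libraries. The annotation release and strand setting are not given in the sources used here. In the median library 63.6% of counts from 1 to 20 were even, so counts may not be independent. Of 55774 lines, 55487 were unique identifiers, and 168 repeated identifiers were kept once. Groups came from the sample titles.

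All 24 libraries were fitted together in edgeR 4.0.16 (R 4.3.3) with TMM factors, filterByExpr (minimum count 10) and the robust quasi-likelihood test over 18931 genes. Every adjusted p is Benjamini-Hochberg over these genes within a comparison, called under 0.05. Correlations used log2 CPM with a prior count of 2. Intervals are normal at 95% from the standard errors. Alternatives used limma 3.58.1 (voom) and DESeq2 1.42.0, other scalings and filters, a GC offset, the replicate number as a block, the groups compared alone, each library left out, and, chosen after seeing the data, the 3 libraries left out together, a covariate of Y-linked genes and the comparisons between ME ages. Same-numbered P14 libraries deviated together (r 0.137 to 0.232), so the replicate number may pair them. For P14 ME replicates 2 and 3, however, a control of another number was closer. The p-values printed carry no block unless one is named.

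All 8 members were named in every comparison, with up to 2 genes of each listed set per ME comparison by smallest adjusted p. Members and lists were chosen with earlier results of these data known, and marker and pathway lists were set by hand. RefSeq windows matched 7 of 8 members.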

Additional observations from a re-analysis of the deposited data

Results flagged for a closer look

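The ME response of Hoxa10 differed between ages by a test of the difference itself: the 8wk log2 fold change minus the P14 one was -1.26, and minus the E16 one -1.15. The same test flagged Hoxa5 between 8wk and E16, at -1.11. The mean of Hoxa10 was 40.2 CPM in 8wk ME, against 72.2 CPM in P14 ME, and 20.6 CPM in 8wk controls, against 15.5 CPM in P14 controls.

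A library far from the other 3 of its group was found in 3 of 48 groups of 4 by Dixon's criterion, and chance flags about 1 in 20. Hoxa2 had 0.377 CPM in P14 ME replicate 3, with 0.115 to 0.154 CPM in the other libraries of that group. Hoxa3 had 0.984 CPM in E16 control replicate 2, with 0.523 to 0.545 CPM in the others, and without that library the E16 response of Hoxa3 passed the test (edgeR adjusted p = 0.0473). Hoxa5 had 0.816 CPM in P14 control replicate 1, with 0.942 to 0.962 CPM in the others.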

How the results depend on the processing

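Hoxa5, Hoxa9 and Hoxa10 stayed higher in ME and called at all 3 ages in every alternative run. The number of members called stayed within 3 to 5 at E16, 5 to 6 at P14 and 3 to 5 at 8 weeks. The count for 8wk minus P14 responses, 1, was 0 with only the groups compared and ranged from 0 to 1 with single libraries left out. That for 8wk minus E16, 2, was 1 with no filter and with only the groups compared, and 1 to 2 with single libraries left out. Between controls, the P14 to E16 count of 1 ranged from 1 to 2 with single libraries left out. The 8wk to P14 count of 1 was 0 with the GC offset, 2 without the 3 libraries that stood apart, and 1 to 2 with single libraries left out. Between P14 ME and E16 ME the count of 0 was 1 without the 3 libraries that stood apart and 0 to 1 with single libraries left out.

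The replicate block in the fit of all libraries ended 1 call of the ME comparisons, Hoxa2 at E16 (0.0574). Hoxa3 at P14 passed there, and its call ended in the fit of the P14 libraries alone both without the block (0.0690) and with it (0.103). Same-numbered libraries had r from -0.0434 to 0.000655 at E16 and from -0.0882 to 0.118 at 8 weeks. With 4 libraries per group, these values cannot show whether the numbers pair those samples.

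Among the values recomputed, signs turned for uncalled ones only, the main values of which lay between -0.44 and 0.21. With single libraries left out, the log2 value between 8wk and P14 controls ranged from -0.34 to 0.25 for Hoxa2, -0.28 to 0.44 for Hoxa4, -0.13 to 0.060 for Hoxa5 and -0.21 to 0.37 for Hoxa6. Hoxa5 there was 0.00924 with the filter at 1 CPM, 0.00885 with the GC offset and 0.000924 in limma-voom, which gave -0.016 for Hoxa4. Without the 3 libraries Hoxa2 was 0.060 and Hoxa6 -0.21. Between P14 and E16 controls, Hoxa3 ranged from -0.39 to 0.15 and Hoxa9 from -0.054 to 0.11. Hoxa9 there was 0.031 with library size only, 0.043 with no filter, 0.00163 with only the groups compared and 0.00794 in limma-voom. Between 8wk and E16 controls, Hoxa6 ranged from -0.55 to 0.053, and was 0.024 with the GC offset. For P14 ME against control, Hoxa2 ranged from -0.65 to 0.16 and Hoxa4 from -0.77 to 0.039. In 8wk minus E16 responses, Hoxa4 ranged from -0.77 to 0.045 and Hoxa6 from -0.45 to 0.23, with 0.34 without the 3 libraries and 0.029 under the Y-linked covariate. In P14 minus E16 responses, Hoxa10 ranged from -0.00530 to 0.20 and Hoxa9 from -0.18 to 0.00473, with 0.00476 without the 3 libraries and 0.00346 under the Y-linked covariate. Between 8wk ME and E16 ME, Hoxa6 ranged from -0.61 to 0.065 and Hoxa2 from -0.25 to 0.25, with -0.014 under library size only, -0.00708 under the Y-linked covariate and -0.048 in limma-voom. Between P14 ME and E16 ME, Hoxa3 ranged from -0.067 to 0.38 and Hoxa9 from -0.12 to 0.00231, with 0.00245 without the 3 libraries. The cause was not tested.

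Over all genes, the 8wk ME count of 5392 was 3433 without 8wk control replicate 3 and 2907 in a fit of the 8wk groups alone. The counts of genes with a different response were 57 for 8wk minus P14 (0 to 1009 over the alternatives), 161 for 8wk minus E16 (48 to 1362) and 4 for P14 minus E16 (1 to 30). The count between 8wk and P14 controls was 2384 (929 to 3605). Between ME groups it was 2166 for 8wk against P14 (1357 to 3454), 2885 for 8wk against E16 (1793 to 3372) and 1740 for P14 against E16 (1132 to 2623). Hoxa2, Hoxa4 and Hoxa6 rest on few counts, so differences under their wide intervals were not detectable at this depth.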
